A study of Mus musculus with 9 samples.

Results

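The genes described here are transcription factors of development and growth control, together with a few partners that share their names, in mouse 6DT1 mammary tumor cells after knockdown (KD) of Resf1. They are defined by their symbols, and the rule itself holds no measured value, although it was written with earlier results of these data known. The rule takes the protein-coding genes named as Klf, Sox, Fox, Hox, Fos, Jun, Ets, Etv, Elf, Elk, E2f, Id, Tead, Runx, Gata, Tcf, Nfi, Nfkb, Rel, Cebp, Smad, Six4 and its relatives, Tbx, Maf, Egr, Mxd, Mxi1, Max, Mycn, Mycl, Trp53, Hif1a or a nuclear receptor (Nr), and leaves out Myc itself. In the mouse annotation 273 genes match it, and 60 of these were among the 5301 genes of the table analysed here.

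6DT1 is a cell line from a mammary tumor of a mouse with a Myc transgene driven by the MMTV promoter. The cells carried a lentiviral scramble hairpin (shControl) or a lentiviral shRNA against Resf1, named H4 (group shH4) or H6 (group shH6). All 3 groups had the same wildtype genotype and were kept in medium with 10 µg/ml puromycin, which selects cells that carry a hairpin, and total RNA was collected 24 hours after seeding at equal density. Each group was 1 transduced line seeded in 3 dishes, which gave 3 libraries, so a difference between lines and an effect of a hairpin cannot be told apart. Values are normalized counts, that is, read counts scaled by the size factor of the library. Per library, an estimated 10.5 to 19.9 M reads fell in the listed genes. The table appears to have been selected for a change: each of the 5301 genes had the same direction of change in shH4 as in shH6. Counts of genes that differed from shControl are therefore descriptions of a selected table, and they give no share of the transcriptome.

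Transcription factors of these families sit at the end of growth and differentiation signals. MYC binds DNA as a dimer with MAX, and the MXD proteins and MXI1 compete with MYC for MAX and repress the same sites. E2F factors switch on or hold back the genes of DNA replication and are restrained by the RB family, AP-1 and ETS factors answer mitogen signals, and NF-kB factors are held in the cytoplasm by IkB proteins that are themselves NF-kB targets.

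Both shRNAs are shown because the KD lines differ in nothing else that the labels name, with bases 2 to 8, the seed, in capitals.
H4: tTTCGATTtgtaacataggtc
H6: aAACAACCaagttacctcagg
The full reverse complement of H4 was found in 5 transcripts of Resf1 and that of H6 in 2, and neither was found in a transcript of any of the 60 members or of any other gene of GENCODE M21. Partial matches, such as the seed alone, were not searched. Resf1 was at 1591, 1553 and 1610 normalized counts in shControl, 976, 953 and 1016 in shH4, and 1120, 1113 and 1130 in shH6. The groups did not overlap, with the lowest level in shH4.

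Most members moved, as most genes of the table did, and about 2 in 3 of them were higher. In shH4, 59 of the 60 members (98.3%) had a limma adjusted p under 0.05, beside 95.7% of all listed genes. Of these, 40 (66.7%) were higher, beside 49.2% of all listed genes, and 19 (31.7%) were lower, beside 46.5%. In shH6, 56 members (93.3%) were called, beside 96.1% of all listed genes. In that hairpin 37 (61.7%) were higher, beside 49.1%, and 19 (31.7%) were lower, beside 46.9%. The median log2 fold change over the members was 0.20 in shH4 and 0.22 in shH6, where the median of all listed genes was 0.096 and 0.088. The median size of the change, without its sign, was 0.26 and 0.34 for the members and 0.27 in each hairpin for all listed genes. Both comparisons share the shControl libraries, so their values are given side by side and not as a replication of each other.

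A change over 2-fold was seen for 4 members (6.67%) in shH4, Klf2, Nfkbie and Hoxb7 among them, beside 3.89% of all listed genes. In shH6 it was seen for 1 member (1.67%), Nfkbie, beside 4% of all listed genes. For 53 members (88.3%) the 6 KD libraries lay all on 1 side of the 3 shControl libraries, beside 86.4% of all listed genes. The 7 members with overlapping libraries included Fosl1, Maf1, Elf4, Id1, Nfkbil1 and Tcf7l2. In both hairpins, 55 members (91.7%) were called in the same direction, beside 91.8% of all listed genes. A set of 5 members was called in 1 hairpin alone, and no member was called in neither. Nfkbil1 missed the threshold in shH4, and Ets1, Tcf7l2 and Hoxb7 were among those that missed it in shH6.

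**Figure D1:**
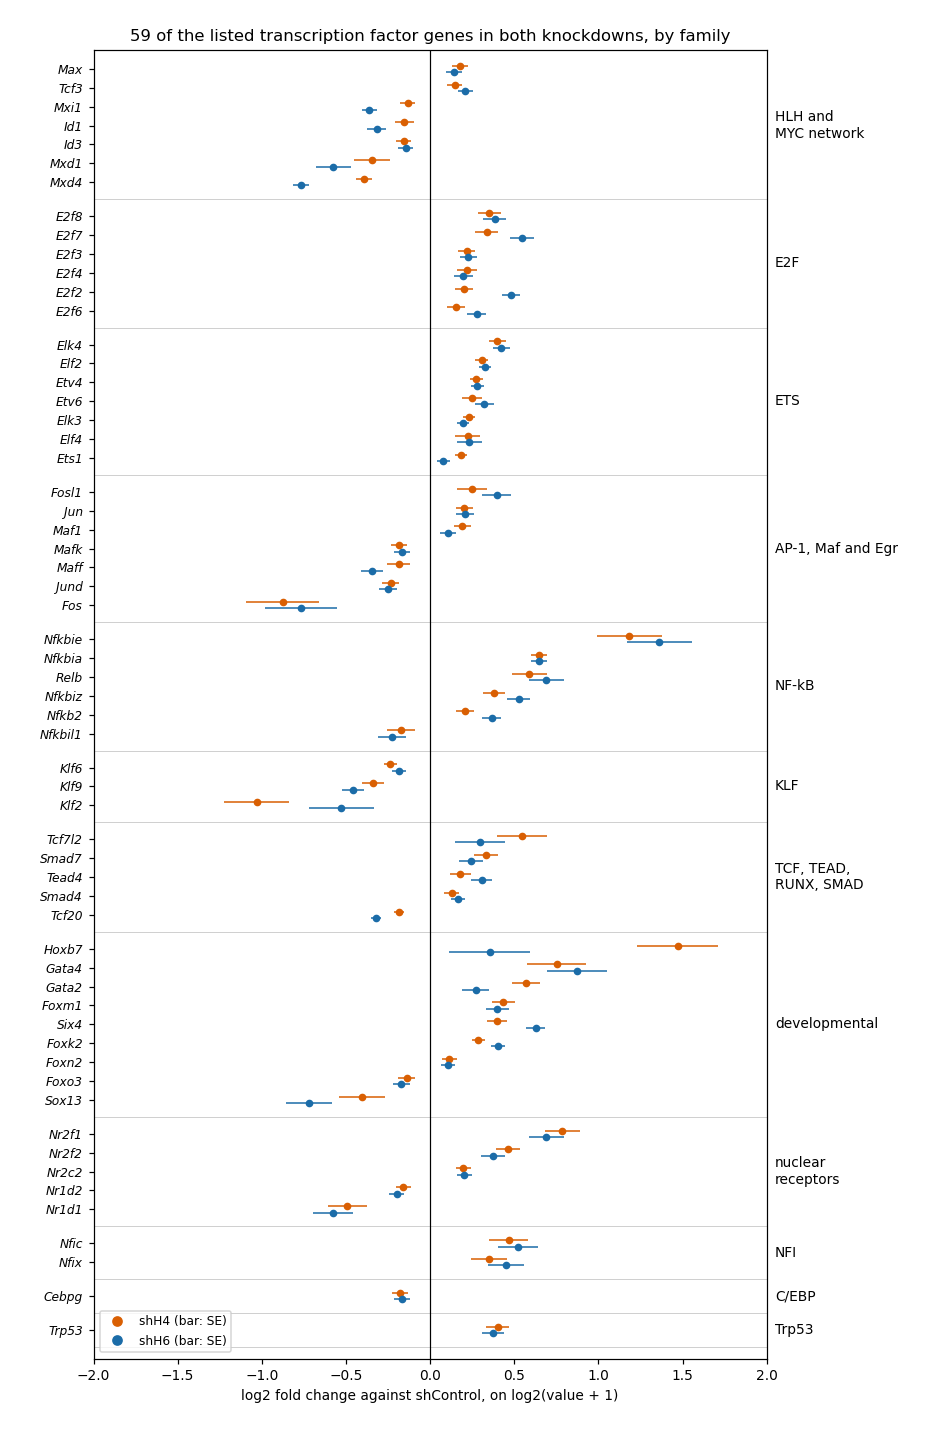
Log2 fold change against shControl, on the log2(value + 1) scale, of 59 of the 60 members by family, with orange points for shH4, blue points for shH6 and bars for the SE of the limma fit. Points of the E2F, ETS and NFI families lie to the right of 0, those of the KLF family lie to the left, and Nfkbie, Hoxb7 and Klf2 stand farthest from 0.

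In the MYC network, MAX and the MXD genes changed in opposite directions. Max, the shared partner of MYC and its antagonists, was higher in both hairpins, while Mxd1, Mxd4 and Mxi1, which encode antagonists, were lower in both. Mxd4 (ENSMUSG00000037235, on the minus strand of chr5:34173883-34187720 in GRCm38) was at 1197, 1175 and 1175 normalized counts in the shControl libraries. It was at 882, 890 and 933 in shH4 and at 672, 710 and 705 in shH6. The 3 groups formed separate bands, with shH6 lowest. The log2 fold change came to −0.39 (SE 0.048, limma adjusted p = 3.16e-06) in shH4 and −0.77 (SE 0.048, limma adjusted p = 2.56e-09) in shH6. Mxd1 was at 175, 184 and 179 in shControl, 131, 145 and 148 in shH4 and 122, 134 and 106 in shH6. All KD libraries of Mxd1 lay below shControl, while the hairpins overlapped, and its log2 fold change came to −0.34 (SE 0.11, limma adjusted p = 0.00661) in shH4 and −0.57 (SE 0.11, limma adjusted p = 0.000153) in shH6.

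Mxi1 was at 1544, 1517 and 1458 normalized counts in shControl, 1339, 1419 and 1364 in shH4 and 1140, 1187 and 1192 in shH6. As for Mxd4, the 3 groups did not overlap and shH6 was lowest. The log2 fold change came to −0.13 (limma adjusted p = 0.00956) in shH4 and −0.36 (limma adjusted p = 2.68e-06) in shH6, with an SE of 0.044 in each. Max was at 1458, 1507 and 1425 in shControl, 1658, 1722 and 1585 in shH4 and 1518, 1684 and 1647 in shH6. The KD libraries of Max all lay above shControl, although the lowest of shH6 exceeded the highest of shControl by little. Its log2 fold change came to 0.18 (SE 0.048, limma adjusted p = 0.00288) in shH4 and 0.14 (SE 0.048, limma adjusted p = 0.0104) in shH6, and after scaling to a common upper quartile the shH6 value was 0.091 (limma adjusted p = 0.0756). Without shH6 replicate 2 it was 0.11 (limma adjusted p = 0.0513).

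Myc itself, which the rule leaves out, was at 10456, 11958 and 12063 in shControl, 8481, 9205 and 9249 in shH4 and 8911, 8792 and 10350 in shH6. Its KD libraries were all lower, with log2 fold changes of −0.35 (SE 0.061, limma adjusted p = 8.04e-05) and −0.30 (SE 0.061, limma adjusted p = 0.000332). Of 5 further genes of the network, 2 were listed. Mga, a large repressor that also pairs with MAX, rose by 0.19 in shH4 and 0.11 in shH6 on the log2 scale (limma adjusted p = 0.00046 and 0.0131). Mlxip, a glucose-responsive factor that pairs with MLX, rose in shH6 by 0.33 (limma adjusted p = 0.00386), while its 0.17 in shH4 did not pass the test (limma adjusted p = 0.0896). Its shH6 libraries were at 614 ± 94.5 normalized counts (SD, n = 3), with replicate 3 highest at 723, beside 487 ± 51.0 in shControl.

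**Figure D2:**
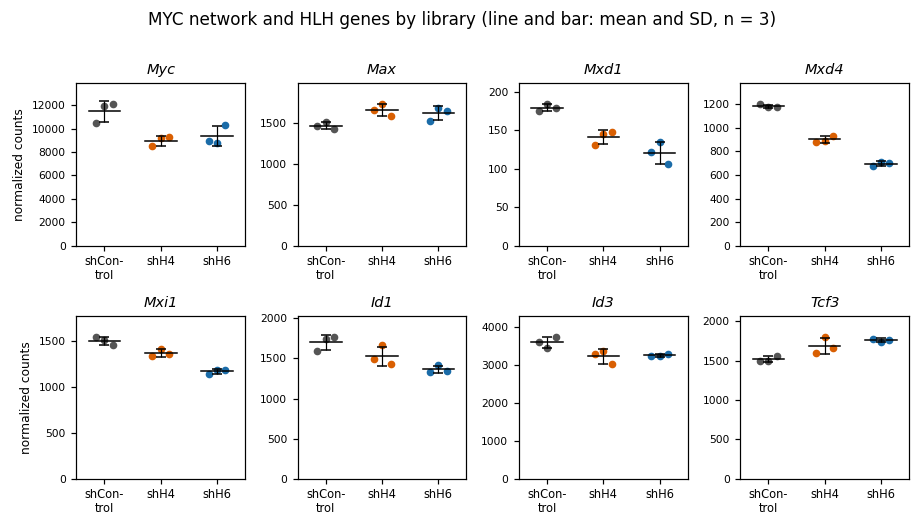
Normalized counts of Myc and the 7 listed genes of the HLH and MYC network in each library, with a line for the group mean and a bar for the SD (n = 3), on axes that start at 0. Max and Tcf3 lie above shControl in the KD groups, whereas Myc, Mxd1, Mxd4 and Mxi1 lie below it, and for Mxd4 and Mxi1 the shH6 points are the lowest.

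Of the helix-loop-helix genes outside the MYC network, Id1, Id3 and Tcf3 were listed. Id1 and Id3 encode proteins that bind E proteins and keep them off DNA, and both were lower, while Tcf3, which encodes the E proteins E12 and E47, was higher. Id3 had the highest level per length of all members, at 2812 normalized counts per kb of transcript in shControl. It was at 3611, 3447 and 3722 normalized counts in shControl, 3286, 3378 and 3012 in shH4 and 3242, 3221 and 3280 in shH6. All KD libraries of Id3 lay below shControl and the 2 hairpins overlapped. The log2 fold change came to −0.16 (SE 0.043, limma adjusted p = 0.00326) in shH4 and −0.15 (SE 0.043, limma adjusted p = 0.00507) in shH6. Id1 was lower by 0.15 in shH4 and 0.32 in shH6 (limma adjusted p = 0.0163 and 9.97e-05), and 1 shH4 library at 1664 overlapped the lowest shControl library at 1591. The shH4 call on Id1 was lost without shControl replicate 2 or 3 and without shH4 replicate 1 or 3, with values of −0.14 to −0.11 (limma adjusted p = 0.0555 to 0.0919). Tcf3 was higher by 0.15 and 0.21 (limma adjusted p = 0.00676 and 0.000543). After scaling to a common upper quartile its shH4 value was 0.085 (limma adjusted p = 0.0872).

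All 6 listed E2F genes, of 8 in the annotation, were higher in both hairpins, beside 49.2% and 49.1% of all listed genes called higher. In each of the 6 genes the KD libraries all lay above shControl, as they did for 2308 of the 5301 listed genes. The changes ran from 0.15 to 0.35 on the log2 scale in shH4 and from 0.20 to 0.55 in shH6. Activators (E2f2 and E2f3), factors that repress with or without RB-family proteins (E2f4 and E2f6) and the atypical repressors E2f7 and E2f8 were all among them. E2f7 was at 346, 402 and 367 normalized counts in shControl, 475, 458 and 472 in shH4 and 527, 525 and 576 in shH6. The 3 groups of E2f7 did not overlap and shH6 was highest, with log2 fold changes of 0.34 (SE 0.068, limma adjusted p = 0.000365) and 0.55 (SE 0.068, limma adjusted p = 3.84e-06). E2f8 was at 531, 649 and 633 in shControl, 740, 772 and 796 in shH4 and 798, 789 and 773 in shH6. Its KD groups overlapped each other and lay above shControl, with log2 fold changes of 0.35 and 0.38 (limma adjusted p = 0.000221 and 9.76e-05). In E2f8, 11.2% of the exon bases lie opposite an antisense gene.

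E2f4 had the highest level of the family per length, at 658 normalized counts per kb of transcript in shControl. It was at 1244, 1343 and 1345 normalized counts in shControl, 1595, 1563 and 1416 in shH4 and 1475, 1404 and 1639 in shH6. The lowest KD library of E2f4 was above the highest shControl library, and the log2 fold change came to 0.22 (SE 0.059, limma adjusted p = 0.00299) in shH4 and 0.20 (SE 0.059, limma adjusted p = 0.00513) in shH6. E2f3 rose by 0.22 and 0.23 (limma adjusted p = 0.000995 and 0.000689). E2f6 rose by 0.15 and 0.28 (limma adjusted p = 0.0133 and 0.000259), and its shH4 value did not pass the test after scaling to a common upper quartile (0.094, limma adjusted p = 0.11), without shControl replicate 2 (0.12, limma adjusted p = 0.0634) or without shH4 replicate 1 (0.11, limma adjusted p = 0.0709).

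Of 10 E2F partners, 6 were listed, in a table with 49.2% and 49.1% of genes called higher and 46.5% and 46.9% lower. In each hairpin 4 of these partners were higher and 2 lower. The 2 that fell were Rb1, the retinoblastoma protein gene, and Rbl2, which encodes the related p130. Rb1 was at 268 ± 16.1 normalized counts in shControl, and the KD groups had 218 ± 18 for shH4 and 186 ± 30.3 for shH6 (SD, n = 3 per group). Its log2 fold changes were −0.30 and −0.53 (limma adjusted p = 0.0171 and 0.000388). Rbl2 fell by 0.12 and 0.35 on the log2 scale (limma adjusted p = 0.047 and 2.62e-05). Rbl1, the p107 gene, rose by 0.14 and 0.18, and Tfdp1, the dimer partner of E2F factors, rose by 0.17 and 0.15. Lin9, a subunit of the MuvB complex that serves cell cycle genes, and Mybl2, a factor that binds this complex, rose in shH4 by 0.35 and 0.28, and in shH6 by 0.39 and 0.63. The limma adjusted p of these 4 rising partners lay between 1.19e-06 and 0.0145.

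**Figure D3:**
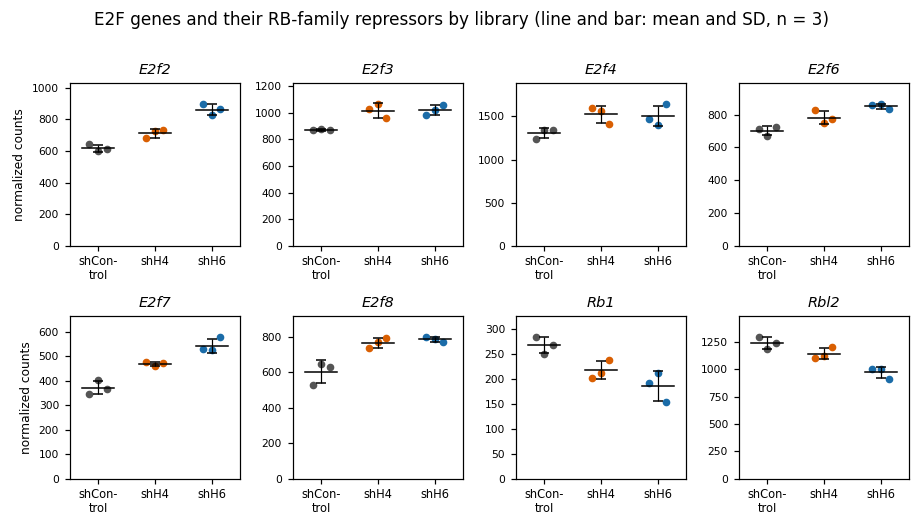
Normalized counts of the 6 listed E2F genes and of Rb1 and Rbl2 in each library, with a line for the group mean and a bar for the SD (n = 3), on axes that start at 0. Every KD point of an E2F gene lies above the shControl points, and the group means of Rb1 and Rbl2 step down from shControl to shH4 and shH6.

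Most of the listed NF-kB genes were higher in both hairpins, beside 49.2% and 49.1% of all listed genes called higher. Of 6 listed genes, Nfkb2 and Relb (subunits of the noncanonical dimer), Nfkbia and Nfkbie (IkB inhibitors) and Nfkbiz (a nuclear IkB) were higher in both. Nfkbil1, a gene named for its similarity to IkB, was at −0.17 in shH4 (limma adjusted p = 0.0579) and fell by 0.23 in shH6 (limma adjusted p = 0.0164). The shH4 value passed after scaling to a common upper quartile (−0.23, limma adjusted p = 0.0164) and with library weights (−0.18, limma adjusted p = 0.0299). Both calls on Nfkbil1 turned on 1 library, since shH4 passed without shControl replicate 2 (−0.24, limma adjusted p = 0.0155) or shH4 replicate 2 (−0.25, limma adjusted p = 0.0115), and shH6 was at −0.16 (limma adjusted p = 0.0923) without shControl replicate 1. Nfkbie (ENSMUSG00000023947, on the plus strand of chr17:45555703-45563169 in GRCm38) was at 26.6, 35.6 and 19.9 normalized counts in shControl. It was at 72.9, 58.2 and 55.7 in shH4 and at 67.3, 73.4 and 69.8 in shH6. Every KD library of this weakly expressed gene exceeded every shControl library, with log2 fold changes of 1.18 (SE 0.19, limma adjusted p = 5.36e-05) and 1.36 (SE 0.19, limma adjusted p = 1.32e-05).

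Nfkbia, which encodes the main inhibitor IkB-alpha, was the most highly expressed of the family per length, at 525 normalized counts per kb of transcript in shControl. It lies on the minus strand of chr12:55489410-55492647 (GRCm38). It was at 794, 843 and 847 normalized counts in shControl, 1316, 1351 and 1227 in shH4 and 1320, 1303 and 1269 in shH6. The KD groups coincided well above shControl, a rise of 0.65 on the log2 scale in shH4 and in shH6 (SE 0.049, limma adjusted p = 1.89e-08 and 1.77e-08). Relb was at 131, 119 and 147 in shControl, 212, 204 and 182 in shH4 and 216, 226 and 200 in shH6. All KD libraries of Relb lay above shControl, with log2 fold changes of 0.59 and 0.69 (SE 0.10, limma adjusted p = 9.34e-05 and 2.08e-05). Nfkbiz rose by 0.38 and 0.53, and Nfkb2 by 0.21 and 0.37, with limma adjusted p between 4.43e-06 and 0.00227. In Nfkb2, 11.6% of the exon bases lie opposite 1 antisense gene and 6.52% opposite another, Psd. In Nfkbil1, 8.25% lie opposite Atp6v1g2 and 8.19% opposite Gm16181.

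Of 5 other NF-kB pathway genes, Tnfaip3 and Bcl3 were listed. Tnfaip3, the feedback inhibitor A20, rose from 159 ± 9.44 to 210.5 ± 19.6 and 237 ± 18.8 normalized counts (SD, n = 3 per group), with log2 fold changes of 0.40 and 0.57 (limma adjusted p = 0.00129 and 6.5e-05). Bcl3, a nuclear IkB that binds p50 and p52, rose from 29.5 ± 4.44 to 44.0 ± 10.2 and 64.9 ± 1.31, with log2 fold changes of 0.55 and 1.12 (limma adjusted p = 0.0139 and 8.11e-05).

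The upstream sequences of Nfkbia and Nfkbie are shown because both encode inhibitors that are NF-kB targets in other systems and both rose. They are the 250 bases before the RefSeq start in GRCm38.p6, read on the gene's own strand, chr12:55492648-55492897 (minus strand) for Nfkbia and chr17:45555450-45555699 (plus strand) for Nfkbie. The capitals mark the match to the NF-kB site pattern, searched on both strands.
Nfkbia: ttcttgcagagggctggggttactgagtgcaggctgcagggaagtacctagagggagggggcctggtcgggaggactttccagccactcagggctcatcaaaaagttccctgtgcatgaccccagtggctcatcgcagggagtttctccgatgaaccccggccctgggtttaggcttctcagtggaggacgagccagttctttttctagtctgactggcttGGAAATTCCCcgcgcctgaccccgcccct
Nfkbie: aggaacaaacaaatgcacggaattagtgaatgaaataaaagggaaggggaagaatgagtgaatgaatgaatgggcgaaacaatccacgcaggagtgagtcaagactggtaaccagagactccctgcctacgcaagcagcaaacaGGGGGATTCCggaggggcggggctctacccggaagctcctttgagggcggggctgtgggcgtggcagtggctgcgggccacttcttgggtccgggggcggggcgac
The match began at −29 in Nfkbia and at −106 in Nfkbie, counted from the start. This pattern was chosen after the values of these genes were seen. It was present in 3 of the 4 NF-kB genes that had a promoter sequence (Nfkb2, Nfkbia and Nfkbie). A gene was counted there if any of its sequences matched, and these 4 genes had 7 sequences. Among the other members the pattern was found in Trp53, which rose, and in Fos and Maff, which fell. Counted by sequence, it was present in 12.5% of the 64 member promoters of 300 bases, in 5.48% of the promoters of all listed genes and in 4.51% of all promoters. A match describes letters only, and binding was not measured here.

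Trp53, which encodes p53, was higher in both hairpins, while Cdkn1a, Ccng1 and Mdm2, the 3 genes of the p53 list in the table, were lower. Of all listed genes, 46.5% were called lower in shH4 and 46.9% in shH6. Trp53 was at 1855, 2281 and 1937 normalized counts in shControl, 2764, 2711 and 2520 in shH4 and 2505, 2487 and 2866 in shH6. All 6 KD libraries lay above shControl, with log2 fold changes of 0.40 (SE 0.067, limma adjusted p = 6.78e-05) and 0.37 (SE 0.067, limma adjusted p = 0.000122). Its level was 1084 normalized counts per kb of transcript in shControl, and the annotation holds a pseudogene, Trp53-ps, whose reads the counting could have shared with it. These 3, of 6 in that list, are known p53 targets, as is E2f7, which rose. Cdkn1a, the p21 cell cycle inhibitor, was at 1416, 1543 and 1525 in shControl, 908, 917 and 899 in shH4 and 892, 906 and 998 in shH6, a log2 fold change of −0.72 and −0.68 (SE 0.052, limma adjusted p = 1.24e-08 and 2.09e-08). The groups of Cdkn1a were far apart from shControl and overlapped each other. Ccng1, cyclin G1, fell by 0.43 and 0.61, and Mdm2, the ubiquitin ligase of p53, fell by 0.21 and 0.38 (limma adjusted p between 6.08e-09 and 5.11e-05).

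Hif1a and its inhibitor gene, which the rule covers, were not analysed here, but 4 of 6 further genes of oxygen sensing were listed. Epas1, which encodes HIF-2 alpha, fell by 0.80 and 0.49 on the log2 scale (limma adjusted p = 8.31e-06 and 0.000609). The prolyl hydroxylase genes Egln1, Egln2 and Egln3, whose products mark HIF proteins for destruction, rose by 0.15 to 0.36 in shH4 and by 0.18 to 0.26 in shH6 (limma adjusted p at most 0.0229).

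**Figure D4:**
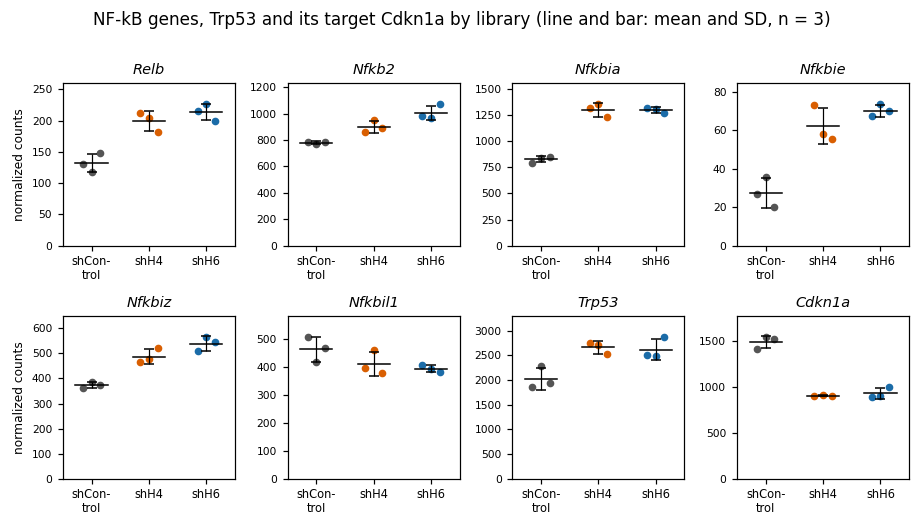
Normalized counts of the 6 listed NF-kB genes, Trp53 and Cdkn1a in each library, with a line for the group mean and a bar for the SD (n = 3), on axes that start at 0. The KD points of Relb, Nfkb2, Nfkbia, Nfkbie, Nfkbiz and Trp53 lie above shControl, those of Cdkn1a lie below it, and the points of Nfkbil1 overlap.

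AP-1 and Maf genes were divided. Of 8 listed genes, of 18 in the annotation with the Egr genes, 3 were higher and 5 lower in shH4, and 3 were higher and 4 lower in shH6. Of all listed genes, 49.2% were called higher and 46.5% lower in shH4, and 49.1% and 46.9% in shH6. Among AP-1 subunits, Jun rose by 0.20 and 0.21 (limma adjusted p = 0.00201 and 0.00172) and Fosl1, which encodes FRA1, rose by 0.25 and 0.40 (limma adjusted p = 0.0128 and 0.00058), whereas Fos and Jund fell. The shH4 call on Fosl1 was lost without shH4 replicate 1 (0.14, limma adjusted p = 0.1025). Jund was the highest of the family per length, at 1107 normalized counts per kb of transcript in shControl. It was at 1809, 1857 and 1872 normalized counts in shControl, 1531, 1712 and 1476 in shH4 and 1562, 1606 and 1486 in shH6. The KD libraries of Jund all lay below shControl, with log2 fold changes of −0.23 (SE 0.052, limma adjusted p = 0.000674) and −0.25 (SE 0.052, limma adjusted p = 0.000361). Fos was low, at 36.9, 47.4 and 52.1 in shControl, 21.7, 25.3 and 25.4 in shH4 and 28.3, 19.9 and 31.2 in shH6. Its KD libraries did not reach the lowest shControl library, with log2 fold changes of −0.88 and −0.77 (SE 0.22, limma adjusted p = 0.00153 and 0.00357). Antisense genes lie opposite 57.2% of the exon bases of Fosl1 and 52.6% of those of Jund, and reads of such pairs cannot be told apart unless the counting used strand.

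The small Maf genes Maff and Mafk, whose products pair with NRF factors, were lower in both hairpins, by 0.19 each in shH4 and by 0.35 and 0.17 in shH6 (limma adjusted p at most 0.0139). Maff in shH4 missed the threshold without shControl replicate 3 (−0.16, limma adjusted p = 0.06185) and without shH4 replicate 3 (−0.13, limma adjusted p = 0.0768). Maf1 matches the rule by its letters alone, since it encodes a repressor of RNA polymerase III. It was higher by 0.19 and 0.11 (limma adjusted p = 0.00204 and 0.0453), and the shH6 value missed the threshold when only the 2 groups entered the fit (limma adjusted p = 0.0602). With library weights it was 0.061 (limma adjusted p = 0.172), and after scaling to a common upper quartile 0.056 (limma adjusted p = 0.273). It was also lost without shControl replicate 2 or 3, shH4 replicate 1 or 3 and shH6 replicate 2 or 3, at 0.065 to 0.11 (limma adjusted p = 0.0522 to 0.228).

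Of 12 partners that dimerize with AP-1 subunits or bind related sites, 6 were listed. Atf3, a stress-induced member, was at 127, 122 and 117 normalized counts in shControl, 49.3, 51.6 and 42.0 in shH4 and 62.0, 48.3 and 29.9 in shH6. These KD libraries were all far below shControl, with log2 fold changes of −1.35 and −1.43 (SE 0.20, limma adjusted p = 2.26e-05 and 1.21e-05). Atf4, of the integrated stress response, fell by 0.25 and 0.10, and Atf6, of the unfolded protein response, fell by 0.15 and 0.17 (limma adjusted p at most 0.018). Atf1 rose by 0.17 and 0.11 and Atf2 by 0.16 and 0.20 (limma adjusted p at most 0.0381). Creb1 rose by 0.21 in shH4 (limma adjusted p = 9.46e-05) and was at 0.069 in shH6 (limma adjusted p = 0.0813), a difference between the hairpins of −0.14 (limma adjusted p = 0.0217).

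All 7 listed ETS genes, of 16 in the annotation, were called higher in shH4 and 6 of them in shH6, beside 49.2% and 49.1% of all listed genes. Their changes were 0.18 to 0.40 and 0.078 to 0.42 on the log2 scale. Etv4, a PEA3-group factor of mammary tumors, was the highest per length, at 905 normalized counts per kb of transcript in shControl. It was at 2185, 2175 and 2139 normalized counts in shControl, 2589, 2709 and 2569 in shH4 and 2559, 2713 and 2625 in shH6. The KD groups of Etv4 coincided above shControl, a rise of 0.28 on the log2 scale in shH4 and in shH6 (SE 0.038, limma adjusted p = 1.04e-05 and 7.96e-06). Elk4, a cofactor of serum response factor, changed most in the family, by 0.40 and 0.42 (SE 0.050, limma adjusted p = 4.3e-06 and 2.14e-06). Elf2 rose by 0.31 and 0.33, Elk3 by 0.23 and 0.20, Etv6 by 0.25 and 0.32, and Elf4 by 0.22 and 0.23 (limma adjusted p between 1.77e-06 and 0.0105). Without shControl replicate 1 Elf4 was at 0.15 in shH4 and 0.16 in shH6 (limma adjusted p = 0.0669 and 0.0509), and without shH4 replicate 3 it was at 0.18 in shH4 (limma adjusted p = 0.0515). Ets1 was at 1682, 1724 and 1708 in shControl, 1942, 1928 and 1938 in shH4 and 1777, 1838 and 1785 in shH6. It rose by 0.18 in shH4 (SE 0.037, limma adjusted p = 0.000347), while its 0.078 in shH6 did not pass the test (SE 0.037, limma adjusted p = 0.0522). The shH6 value passed after scaling to a common column total (0.12, limma adjusted p = 0.00586) and with library weights (0.069, limma adjusted p = 0.0371). The direct test of shH6 against shH4 did not pass (−0.11, limma adjusted p = 0.0982), although the libraries of the 2 hairpins were apart.

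The 3 listed KLF genes, of 17 in the annotation, were all lower in both hairpins, beside 46.5% and 46.9% of all listed genes called lower. In each of the 3 the KD libraries lay below shControl, as they did for 2270 of the 5301 listed genes. Klf2, a zinc finger factor of quiescence, was at 101, 128 and 135 normalized counts in shControl, 59.1, 80.2 and 42.1 in shH4 and 91.8, 90.2 and 69.8 in shH6. The KD libraries of Klf2 spread widely and all lay below 101, with log2 fold changes of −1.03 (SE 0.19, limma adjusted p = 0.000182) and −0.53 (SE 0.19, limma adjusted p = 0.0166). The shH6 call was lost without shControl replicate 3 (−0.45, limma adjusted p = 0.0658) and without shH6 replicate 3 (−0.40, limma adjusted p = 0.0712). Klf9, a glucocorticoid-responsive factor, was at 632, 615 and 619 in shControl, 471, 521 and 486 in shH4 and 430, 489 and 440 in shH6. Its KD groups overlapped each other below shControl, with log2 fold changes of −0.34 and −0.46 (SE 0.065, limma adjusted p = 0.000222 and 1.24e-05). Klf6 was the highest of the family per length, at 676 normalized counts per kb of transcript in shControl. It was at 2856, 2871 and 2840 normalized counts in shControl, 2463, 2370 and 2443 in shH4 and 2554, 2615 and 2376 in shH6. The KD libraries of Klf6 overlapped each other below shControl, and it fell by 0.24 and 0.18 (limma adjusted p = 7.31e-05 and 0.000552).

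Of the developmental families (SOX, FOX, HOX, GATA and T-box factors and the relatives of Six4), 9 genes of 131 in the annotation were listed. Foxm1, a driver of mitotic gene expression, was at 1476, 1701 and 1665 normalized counts in shControl, 2120, 2220 and 2200 in shH4 and 2007, 1949 and 2457 in shH6. All KD libraries of Foxm1 exceeded shControl, with log2 fold changes of 0.44 (SE 0.070, limma adjusted p = 4.67e-05) and 0.40 (SE 0.070, limma adjusted p = 9.76e-05). Gata4, an endoderm and heart factor, was low and rose from 30.2 ± 4.28 to 51.2 ± 0.64 and 56.2 ± 9.72 (SD, n = 3 per group), by 0.75 and 0.87 on the log2 scale (limma adjusted p = 0.00102 and 0.00031). Foxk2 rose by 0.29 and 0.40 (limma adjusted p = 1.6e-05 and 4.61e-07). Foxn2, the highest of these families per length at 374 normalized counts per kb of transcript in shControl, was at 1982, 1879 and 1842 normalized counts in shControl, 2026, 1987 and 2162 in shH4 and 2076, 2053 and 2014 in shH6. The lowest KD library was just above the highest shControl library, and Foxn2 rose by 0.11 in each hairpin (SE 0.043, limma adjusted p = 0.0184 and 0.0243). These calls on Foxn2 did not survive scaling to a common upper quartile (0.054 and 0.056, limma adjusted p = 0.247 and 0.224). They were also lost in both hairpins without shControl replicate 2 or 3, in shH4 without shH4 replicate 3 and in shH6 without shH6 replicate 1 or 2, at 0.079 to 0.11 (limma adjusted p = 0.0502 to 0.105).

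Sox13 and Foxo3 were lower. Sox13, of the SoxD group, was at 98.4, 113 and 114 normalized counts in shControl, 86.7, 72.5 and 86.1 in shH4 and 58.9, 61.9 and 76.1 in shH6. The KD libraries lay below shControl and the 2 hairpins overlapped, with log2 fold changes of −0.40 (SE 0.14, limma adjusted p = 0.0115) and −0.72 (SE 0.14, limma adjusted p = 0.000199). The shH4 call on Sox13 was lost without shH4 replicate 2 (−0.32, limma adjusted p = 0.0536). Foxo3, a factor restrained by PI3K and AKT signalling, fell by 0.14 and 0.17 (limma adjusted p = 0.0188 and 0.00623). Its shH4 value was −0.11 (limma adjusted p = 0.0838) without shControl replicate 3, −0.13 (limma adjusted p = 0.0591) without shH4 replicate 1, and −0.11 (limma adjusted p = 0.0587) after scaling to a common column total.

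Nuclear receptors split by subfamily. The COUP-TF genes Nr2f1 and Nr2f2 rose, and the REV-ERB genes Nr1d1 and Nr1d2, which encode repressors of the circadian clock, fell. Nr2f1 was at 135, 133 and 114 normalized counts in shControl, 208, 243 and 208 in shH4 and 214, 217 and 186 in shH6. The KD libraries of Nr2f1 overlapped each other well above shControl, with log2 fold changes of 0.78 (SE 0.10, limma adjusted p = 7.07e-06) and 0.69 (SE 0.10, limma adjusted p = 2.31e-05). Nr2f2 rose by 0.46 and 0.38 (limma adjusted p = 2.63e-05 and 0.000165). Nr1d1 was at 152, 163 and 161 in shControl, 109, 106 and 123 in shH4 and 93.8, 102 and 124 in shH6. Every KD library of Nr1d1 was below shControl, with log2 fold changes of −0.49 (SE 0.12, limma adjusted p = 0.00126) and −0.58 (SE 0.12, limma adjusted p = 0.000339), and 8.55% of its exon bases lie opposite those of Thra.

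Nr1d2 was the highest of the nuclear receptors per length, at 322 normalized counts per kb of transcript in shControl. It was at 1480, 1515 and 1514 normalized counts in shControl, 1414, 1269 and 1359 in shH4 and 1295, 1295 and 1337 in shH6. Its KD libraries lay below shControl, with log2 fold changes of −0.16 and −0.20 (SE 0.046, limma adjusted p = 0.00422 and 0.000832). Nr2c2, which encodes TR4, rose by 0.20 in each hairpin (limma adjusted p = 0.00093 and 0.00071). Of its exon bases, 30.7% lie opposite those of Mrps25.

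Effectors of TGF-beta, Hippo and Wnt signalling were mostly higher, beside 49.2% and 49.1% of all listed genes called higher. Smad4, the shared SMAD, rose by 0.13 and 0.17 (limma adjusted p = 0.0107 and 0.00211), and Smad7, an inhibitory SMAD, rose by 0.33 and 0.24 (limma adjusted p = 0.000538 and 0.00459). Tead4, the DNA-binding partner of YAP, rose by 0.18 and 0.31 (limma adjusted p = 0.0132 and 0.000361). After scaling to a common upper quartile, the shH4 values were 0.067 for Smad4 (limma adjusted p = 0.153) and 0.12 for Tead4 (limma adjusted p = 0.0859). The shH4 call was lost for Smad4 without shControl replicate 3 (0.10, limma adjusted p = 0.0564) and for Tead4 without shControl replicate 2 (0.15, limma adjusted p = 0.0506) or shH4 replicate 2 (0.14, limma adjusted p = 0.0683). Tcf7l2, a Wnt effector, was at 73.1, 96.0 and 79.8 normalized counts in shControl, 105, 120 and 140 in shH4 and 95.6, 89.2 and 122 in shH6. The shH6 libraries overlapped shControl, and the log2 fold change came to 0.55 (SE 0.15, limma adjusted p = 0.00296) in shH4 and 0.30 (SE 0.15, limma adjusted p = 0.0646) in shH6. The shH6 value passed without shControl replicate 2 (0.40, limma adjusted p = 0.02425) and without shH6 replicate 2 (0.39, limma adjusted p = 0.03285), and also after scaling to a common column total (0.34, limma adjusted p = 0.0444) and with library weights (0.25, limma adjusted p = 0.0456).

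The pathway genes around these effectors were listed in part. All 5 listed Hippo genes of 14 rose in both hairpins, in a table where 49.2% and 49.1% of genes were called higher and every gene had 1 direction in both. Stk4, the MST1 kinase, was highest among them in its change, from 895 ± 9.22 normalized counts to 1381 ± 27.2 and 1371 ± 51.7 (SD, n = 3 per group), a log2 fold change of 0.62 and 0.61 (limma adjusted p = 9.33e-09 and 1.18e-08). Sav1, Nf2, Lats2 and Amotl2 rose by 0.13 to 0.43 in shH4 and by 0.17 to 0.33 in shH6 (limma adjusted p at most 0.0198). Both listed Wnt genes of 6, Apc and Axin1, which restrain beta-catenin, rose in shH4 by 0.26 and 0.13, and in shH6 by 0.11 and 0.17 (limma adjusted p at most 0.0282). Of 4 listed TGF-beta genes of 12, the ligand gene Tgfb3 fell by 0.16 and 0.55 (limma adjusted p = 0.0069 and 1.57e-07), with a difference between the hairpins of −0.39 (limma adjusted p = 0.000141). Bmp4 did not pass the test in shH4 and fell in shH6 (−0.17 and −0.54, limma adjusted p = 0.151 and 0.000474), and the direct test of shH6 against shH4 did not pass (−0.37, limma adjusted p = 0.0582). The SMAD corepressor gene Ski fell by 0.22 in shH4 and was at −0.069 in shH6 (limma adjusted p = 0.000424 and 0.152). The receptor gene Bmpr1a was at 0.068 in shH4 and rose by 0.17 in shH6 (limma adjusted p = 0.0818 and 0.000629).

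The NFI and C/EBP families had few listed genes. Nfic was the higher of both NFI genes per length, at 159 normalized counts per kb of transcript in shControl. It was at 832, 1044 and 1103 normalized counts in shControl, 1292, 1431 and 1371 in shH4 and 1245, 1252 and 1827 in shH6. All KD libraries of Nfic were above shControl and 1 shH6 library stood above the rest, with log2 fold changes of 0.47 (SE 0.12, limma adjusted p = 0.00171) and 0.52 (SE 0.12, limma adjusted p = 0.000711). Nfix rose by 0.35 and 0.45 (limma adjusted p = 0.00658 and 0.00119). Cebpg, which encodes a C/EBP without an activation domain and was the only C/EBP gene listed of 7, was at 322 normalized counts per kb of transcript in shControl. It was at 1483, 1523 and 1544 normalized counts in shControl, 1327, 1276 and 1418 in shH4 and 1372, 1397 and 1284 in shH6. The KD libraries of Cebpg overlapped each other below shControl, with log2 fold changes of −0.18 and −0.17 (SE 0.048, limma adjusted p = 0.00285 and 0.00427).

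In the comparison of shH6 with shH4 the difference itself holds no shControl value, although the shControl libraries enter the estimate of the spread and the genes come from the same selected table. Of the 60 members, 7 (11.7%) differed between the hairpins with a limma adjusted p under 0.05, beside 8.26% of all listed genes. The count was 4 without shH6 replicate 1 and 12 with library weights. In shH6, 2 of them (3.33%) were higher, beside 3.89% of all listed genes, and 5 (8.33%) were lower, beside 4.38%. For 14 members (23.3%) the libraries of the 2 hairpins did not overlap, beside 24.8% of all listed genes. E2f2 and Six4 were higher in shH6, and Mxd4, Mxi1, Tcf20, Gata2 and Hoxb7 were lower. For 6 of these genes both hairpins had been called in the same direction against shControl, so that they differed in size. Resf1 was itself higher in shH6 than in shH4, by 0.19 (limma adjusted p = 0.00984), and the part of this in the members' differences was not tested.

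Hoxb7 had the largest difference. This homeobox gene was at 10.9, 9.48 and 12.2 normalized counts in shControl, 31.5, 29.7 and 34.2 in shH4 and 15.3, 14.7 and 12.5 in shH6. The shH4 libraries stood apart and the shH6 libraries lay just above shControl. The log2 fold change came to 1.47 (SE 0.24, limma adjusted p = 5.36e-05) in shH4 and 0.35 (SE 0.24, limma adjusted p = 0.16) in shH6, and shH6 was lower than shH4 by 1.12 (SE 0.24, limma adjusted p = 0.00736). The level is low, at 8.42 normalized counts per kb of transcript in shControl. The endothelial markers Pecam1 and Cdh5 had the same order of groups, and their summed normalized counts ran from 20.1 to 30.8 for shControl, from 173 to 208 for shH4 and from 26.01 to 31.2 for shH6. None of these values was at 0, the other 2 markers of that list of 4 were not analysed here, and their part in the Hoxb7 result was not tested.

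Gata2, a zinc finger factor of blood and endothelium that is also expressed in epithelial tumors, showed a smaller difference of the same kind. It was at 506, 647 and 610 normalized counts in shControl, 854, 875 and 875 in shH4 and 659, 679 and 787 in shH6. The 3 groups did not overlap and shH4 was highest. The log2 fold change came to 0.57 (SE 0.081, limma adjusted p = 1.44e-05) in shH4 and 0.27 (SE 0.081, limma adjusted p = 0.0052) in shH6, and the difference was −0.30 (SE 0.081, limma adjusted p = 0.0293). It missed the threshold without shH4 replicate 1, 2 or 3 and without shH6 replicate 1 or 2, at −0.31 to −0.25 (limma adjusted p = 0.075 to 0.129). Pecam1 and Cdh5 were likewise highest in shH4 and were not called in shH6 against shControl. The part of these 2 markers in the Gata2 result was not tested.

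Mxd4 and Mxi1, the MYC antagonist genes described above, were lower in shH6 than in shH4 by 0.37 (SE 0.048, limma adjusted p = 0.000113) and 0.23 (SE 0.044, limma adjusted p = 0.00344). E2f2 was at 644, 599 and 613 normalized counts in shControl, 680, 724 and 731 in shH4 and 895, 826 and 867 in shH6. Its shH6 libraries lay above all others, with log2 fold changes of 0.20 and 0.48 (limma adjusted p = 0.00304 and 1.59e-06) and a difference of 0.28 (SE 0.055, limma adjusted p = 0.0045). Six4, a homeobox factor of muscle and kidney development, was at 547, 556 and 497 in shControl, 713, 719 and 675 in shH4 and 842, 795 and 834 in shH6. The 3 groups of Six4 stepped upward without overlap, with log2 fold changes of 0.40 and 0.63 (limma adjusted p = 1.86e-05 and 1.63e-07) and a difference of 0.23 (SE 0.058, limma adjusted p = 0.0194). The difference in Six4 was 0.20 (limma adjusted p = 0.0875) without shH4 replicate 3 and 0.21 (limma adjusted p = 0.0807) without shH6 replicate 1.

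Tcf20, a transcriptional coregulator that shares only its name with the TCF factors, had the highest level per length of its group, at 888 normalized counts per kb of transcript in shControl. It was at 6562, 6605 and 6595 normalized counts in shControl, 5838, 5739 and 5799 in shH4 and 5235, 5237 and 5346 in shH6. The replicates were close and the groups stepped downward without overlap, with log2 fold changes of −0.19 and −0.32 (SE 0.031, limma adjusted p = 5.87e-05 and 2.33e-07). In shH6 against shH4 it was at −0.14 (SE 0.031, limma adjusted p = 0.01), and at −0.13 (limma adjusted p = 0.0534) without shH6 replicate 1. For the other 53 members the difference had a median size of 0.074 on the log2 scale, beside 0.059 for all listed genes that were not called. Of these 53, 11 (20.8%) had an unadjusted p under 0.05, beside 14.5% of all listed genes that were not called. In Klf2, a weakly expressed member, a difference of 0.50 (SE 0.19, limma adjusted p = 0.13) did not pass the test.

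Among the 37 listed partner genes, 9 differed between the hairpins by the same test, with 3 higher and 6 lower in shH6, where 8.26% of all listed genes were called, 3.89% higher and 4.38% lower. Twist1, Mybl2 and Atf4 were higher in shH6 by 0.42, 0.35 and 0.15 on the log2 scale (limma adjusted p = 0.00208, 0.00469 and 0.0208). Rbl2, Amotl2, Ccng1 and Mdm2 were at −0.23, −0.20, −0.19 and −0.16 (limma adjusted p = 0.0105, 0.0375, 0.00984 and 0.00765), and the values of Tgfb3 and Creb1 are given above.

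**Figure D5:**
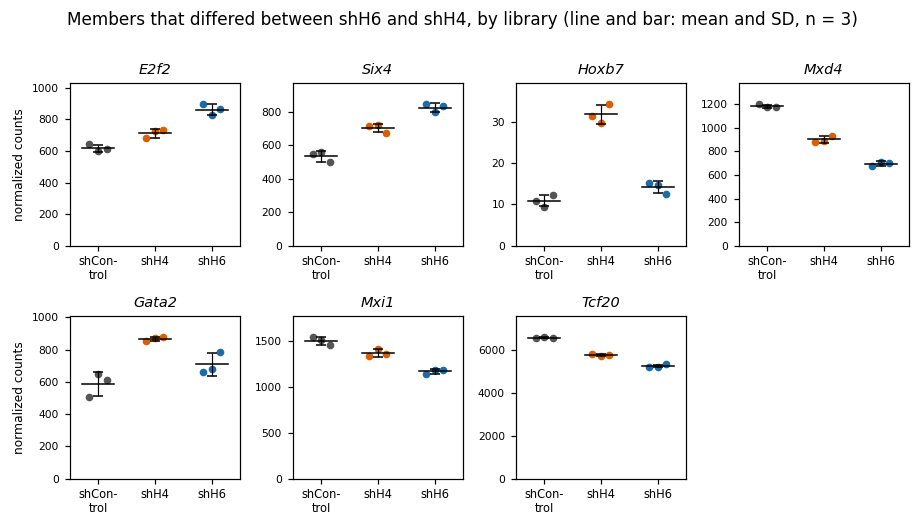
Normalized counts in each library of the 7 members called between shH6 and shH4, with a line for the group mean and a bar for the SD (n = 3), on axes that start at 0. The shH6 points lie beyond the shH4 points for E2f2, Six4, Mxd4, Mxi1 and Tcf20, and between shControl and shH4 for Gata2 and Hoxb7.

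Promoter sequences of 300 bases (250 before and 50 after the RefSeq start, GRCm38.p6) were found for 44 of the 60 members, 64 in all. The E-box CACGTG, which MYC and MXD dimers with MAX bind, was present in 12.5% of member promoters, 9.89% of the promoters of all listed genes and 7.15% of all promoters. In the HLH and MYC network it was found in Max and Mxd4. The 250 bases before the start of Mxd4 are shown because its shH6 value had the lowest p of all members against shControl. In shH4 the lowest was that of Nfkbia. The bases shown lie at chr5:34187711-34187960 on the minus strand, with the E-box in capitals.
Mxd4: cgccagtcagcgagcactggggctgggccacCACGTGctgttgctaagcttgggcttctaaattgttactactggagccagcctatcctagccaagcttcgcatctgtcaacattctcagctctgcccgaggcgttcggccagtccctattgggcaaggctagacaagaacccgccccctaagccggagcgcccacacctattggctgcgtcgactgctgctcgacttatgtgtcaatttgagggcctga
The E-box began at −219. A G-quadruplex pattern (4 runs of at least 3 G separated by 1 to 7 bases, on either strand) was present in 34.4% of member promoters, 29% of those of all listed genes and 18.6% of all promoters. The AP-1 site TGACTCA was present in 4.69%, 4.16% and 5.2%. The E2F sites TTTCGCGC and TTTGGCGC were present in 1.56%, 1.86% and 0.813%, with E2f2 as the 1 member. All motifs were searched on both strands, and their shares are descriptions with no test. Members had a median transcript length of 3704 bases and 53.6% GC, beside 2994 bases and 50.3% for all listed genes.

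Markers of the labelled and other cell types were listed in small part. Of 13 mammary epithelial markers Krt8 and Krt18 were listed, the simple epithelial keratins, and these were high in all libraries and lower in shH4 than in shControl. Their summed normalized counts ran from 26580 to 29000 for shControl, from 22390 to 23860 for shH4 and from 24790 to 27870 for shH6. Krt8 was at 15450 ± 636 normalized counts (shControl), 12980 ± 525 (shH4) and 14630 ± 861 (shH6) (SD, n = 3 per group), with log2 fold changes of −0.25 and −0.079 (limma adjusted p = 0.000118 and 0.0953). Of 7 leukocyte markers Cd68 was listed, at 638 ± 30.1, 226 ± 25.6 and 215 ± 22.1, and of 7 mesenchymal markers Pdgfra was listed, at 85.0 ± 20.2, 141 ± 21.8 and 147 ± 15.9 (shControl, shH4 and shH6). No listed marker was at 0 in any library, and the other markers were not analysed here. In bulk samples, fewer cells of a type and less RNA per cell cannot be told apart, and the part of these markers in the results above was not tested. The EMT factor genes in the table, 3 of 6, were divided. Zeb1 fell by 0.11 and 0.13 (limma adjusted p = 0.0171 and 0.0102), Zeb2 rose by 0.34 and 0.24 (limma adjusted p = 7.61e-05 and 0.00117), and Twist1 fell by 0.55 in shH4 and was at −0.13 in shH6 (limma adjusted p = 9.28e-06 and 0.0945).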

How the data were processed

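RNA-seq libraries (TruSeq Stranded Total RNA) of 9 dishes were analysed. Per the submitters' notes the authors used STAR 2.7.8a, Partek, DESeq2 and the build mm39. The annotation, the counting and its use of strand are not given in the sources used here. The deposited values are a signal per gene, normalized counts, which are read counts scaled by the size factor of the library. Below 150 normalized counts 75.1% of values were whole multiples of 1 read (within 0.02 reads), so reads were not recovered. Size factors ran from 0.802 to 1.46, and no value column was left without a sample.

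Of 5301 identifiers, 5258 matched GENCODE M21 (GRCm38). After log2(value + 1), limma 3.58.1 (R 4.3.3) fitted the 9 libraries in 1 model, with a trend on the mean and Benjamini-Hochberg adjustment over 5301 genes. A call is an adjusted p under 0.05. Replicates are dishes of 1 line, so p-values measure only the spread between these samples. Within a group no dish was a copy of another, since each pair differed beyond counting error (chi-square per gene 2.51 to 7.43). This used reads estimated with the inferred size factors, and pairs across groups were not compared in this way.

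Members, families, partner lists and markers were chosen with earlier results of these data known. Genes described per library were Resf1 and Myc, the 6 that rose and the 6 that fell most (by the smaller change, called the same way in both hairpins, no overlap with shControl, mean of at least 50 normalized counts), those called between hairpins, and the highest per kb in each family. Other members and partners fall outside this rule. They were named to account for their family or list, and those given per library (E2f7, E2f8, Max, Fos, Ets1, Tcf7l2, Atf3, Cdkn1a) were picked after their values were seen. Of the listed members, 1 enters the counts while its values are not reported here.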

Additional observations from a re-analysis of the deposited data

Results flagged for a closer look

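For 7 members the effects of the 2 hairpins differed by the test of the difference itself, limma on shH6 against shH4. The log2 difference, shH6 minus shH4, was 0.277 for E2f2, 0.231 for Six4, −0.374 for Mxd4, −0.228 for Mxi1, −0.136 for Tcf20, −0.298 for Gata2 and −1.12 for Hoxb7. Each hairpin is 1 transduced line, so a difference between the hairpins and a difference between 2 lines cannot be told apart.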

How the results depend on the processing

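The alternatives were pseudocounts of 0.5 and 5, a filter on a mean of at least 10, scaling to a common upper quartile or column total, a fit of the 2 groups compared, library weights, a replicate block and leaving out each library. They were run for members and not for partner or marker genes. Of 2159 member values under them, 2089 kept their direction and side of the threshold, 56 lost the call, 14 gained it and 0 turned direction. These values cover all members against shControl, but between the hairpins only the 7 members called there. Calls that other members gained between the hairpins are therefore not among the 14. Members called between the hairpins went from 7 to 12 with library weights, where the cause was not tested, and ran from 4 to 7 with 1 library left out. The lowest was without shH6 replicate 1, where Gata2, Six4 and Tcf20 lost the call. Replicate numbers did not pair the samples, since 1 of 9 same-numbered pairs had a correlation of deviations over 0.1 (−0.155 to 0.108) and 4 of 9 libraries correlated best with their own number. With the replicate block, 59, 55 and 7 members were called in shH4, in shH6 and between the hairpins, and the call lost was Maf1 in shH6. The upper quartile left 54 and 53 members called against shControl, with Tcf3, Smad4, Tead4, Elf4, Foxn2 and E2f6 lost and Nfkbil1 gained in shH4, and Maf1, Foxn2 and Max lost in shH6, where it lowered the median change of all listed genes to 0.034 and 0.036. Read depth was known only as an estimate over listed genes.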
